A study of Arabidopsis thaliana with 30 samples.

Results

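Glucosinolates are sulfur-rich defence compounds of Arabidopsis and other Brassicales, and 39 of the 33602 genes in the count tables were followed here because they build, decorate, transport or hydrolyse them. The genes were chosen by their described roles as regulators, chain elongation enzymes, core enzymes, side-chain enzymes, transporters and myrosinases, with earlier results of these counts (levels and differences between the groups) in view. No measured value enters the rule itself, but no comparison below is independent of those results. The number of genes that passed a test is therefore a description, given beside the share of all genes that passed it. Seedlings of wild-type Col-0 were compared with the bdr1,2,3 mutant, in which all 3 BORDER genes carry T-DNA insertions (line SALK_142108C for bdr1-1, WISCDSLOX352H03 for bdr2-1 and SALK_059905C for bdr3-1). BORDER proteins combine a TFIIS central domain with an SPOC domain, and the study asked how they act on neighbouring genes that are transcribed in the same direction.

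In the photomorphogenesis experiment, seedlings aged 5 days grown in darkness at 21 °C were kept dark or moved to white light, which lasted 2 or 4 h. For heat shock, seedlings aged 12 days were grown at 12 °C with 16 h of light and 8 h of darkness, and were kept at 12 °C or moved to 27 °C for 4 h. Each of the 10 groups had 3 libraries, which came from separate plates of whole seedlings, so p-values measure the spread between plates. The photomorphogenesis libraries held 7517174 to 22888978 counted reads. Those of heat shock held 6823975 (wild-type cold replicate 2) to 22458726. BDR1 fell from 101 ± 10.2 CPM (counts scaled to a common library size, mean ± SD, n = 3) in wild-type dark libraries to 2.59 ± 0.637 in the mutant ones, BDR2 from 21 ± 2.56 to 14.4 ± 0.718 and BDR3 from 8.15 ± 1.29 to 3.29 ± 0.41, while BDR3 did not pass in the cold (-0.06 ± 0.15 on the log2 scale). Summed levels of 3 green-tissue markers rose from 952 CPM in wild-type dark libraries to 7505 after 4 h of light. Seed storage and root-hair markers were highest in mutant dark replicate 3, at 39.1 and 5.46 CPM, against at most 10.4 and 0.263 in wild-type dark libraries. In the heat shock experiment 6 seed storage markers summed to 12.5 to 25.1 CPM in mutant libraries and 2.15 to 9.09 in wild-type ones.

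The pathway has an aliphatic and an indole branch. Aliphatic glucosinolates start from methionine, whose side chain is first lengthened in a cycle that begins with BCAT4 and MAM1 or MAM3, while indole glucosinolates start from tryptophan. In both branches a CYP79 enzyme makes an aldoxime, a CYP83 enzyme activates it, and a glutathione conjugate is then cleaved, glucosylated and sulfated. MYB28, MYB29 and MYB76 are the R2R3-MYB activators of the aliphatic branch, and MYB34, MYB51 and MYB122 those of the indole branch. The myrosinases TGG1 and TGG2, stored in myrosin cells and guard cells, hydrolyse the finished compounds when tissue is wounded.

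R2R3-MYB proteins are known to bind AC elements, so the 500 bases upstream of each gene start (TAIR10.1, RefSeq annotation) were searched on both strands for the element ACCTACC, for its variant ACCAACC and for the further variant ACCTAAC. At least 1 of the 3 elements was found upstream of 17 of the 39 genes, and in 11.5% of the windows of that length before all 27443 protein-coding genes searched. They were found before 5 of 8 chain elongation genes, 4 of 8 aliphatic core genes, 3 of 4 indole core genes, 2 of 3 shared core genes, 2 of 6 side-chain genes and MYB28, and before none of the 3 indole regulators, the 2 transporters and the 2 myrosinases. The G-box CACGTG was found before 7 of the 39 genes and in 9.35% of all windows, and no match overlapped another in the windows of the 39 genes. The 12 stretches below are those of the chain elongation and core genes of both branches, shown because the results turn on these genes. Each is read 5′ to 3′ on the strand that spells the element, in capitals, for the element nearest to the gene start. A match is a description of these letters and not of a bound site.
BCAT4 (AT3G19710, chr3:6850066-6850092, minus strand): attaacctccACCTAACtacgagcgca
BAT5 (AT4G12030, chr4:7210777-7210803, minus strand): acaccaagtcACCAACCtatcgtctca
IPMI-LSU1 (AT4G13430, chr4:7807985-7808009, minus strand): gtttaatgacACCAACCtaatgaca
IPMI-SSU2 (AT2G43100, chr2:17920541-17920567, plus strand): tttcactgtgACCTACCtaagtatatc
IPMI-SSU3 (AT3G58990, chr3:21798421-21798447, minus strand): gtacacaacgACCAACCttcgtgtctc
CYP79F2 (AT1G16400, chr1:5604930-5604956, plus strand): aaacgtggttACCTACCcaagagctca
CYP83A1 (AT4G13770, chr4:7992484-7992510, plus strand): aaacaccttcACCTACCcaacatccct
GSTU20 (AT1G78370, chr1:29485716-29485742, minus strand): atgtacacccACCTAACtgagagataa
SOT17 (AT1G18590, chr1:6398503-6398529, plus strand): accagtcaccACCAACCtacttatcta
CYP79B2 (AT4G39950, chr4:18524709-18524735, minus strand): gttttagttaACCTAACtgtctactac
CYP79B3 (AT2G22330, chr2:9488075-9488101, plus strand): aaatcaaacgACCTACCaaaataagat
SOT16 (AT1G74100, chr1:27865916-27865942, minus strand): acgtagccaaACCAACCaagcctctct
Among these 12, ACCAACC is the nearest element in 5, ACCTACC in 4 and ACCTAAC in 3. Their distance from the gene start ran from 15 bases for IPMI-LSU1 to 500 for BCAT4, and those of BAT5, SOT17 and CYP83A1 lay 20, 18 and 71 bases before it.

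The aliphatic branch was nearly silent in the dark-grown seedlings. Of the 39 genes, 8 had 0 counts in all 18 photomorphogenesis libraries, and all 8 belong to that branch: the regulators MYB29 and MYB76, the transaminase BCAT4, the cytochromes P450 CYP79F1, CYP79F2 and CYP83A1, and the 2-oxoglutarate-dependent dioxygenases AOP2 and AOP3. A further 10 had 2 to 109 counts over those libraries together and were not tested: BAT5, MAM1, MAM3, IPMI-SSU2, IPMI-SSU3, IPMDH1, GSTF11, FMO-GS-OX1, FMO-GS-OX2 and FMO-GS-OX3. A count of 0 allows up to 3 counts in a library, which is 0.395 CPM in the shallowest dark library, so lower levels were not detectable at this depth. In bulk seedlings, fewer cells of a type and less RNA per cell cannot be told apart.

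Apart from MYB76 and AOP3, the genes with too few counts to be tested under light held enough to be tested in the older seedlings of the heat shock experiment. CYP83A1, which oxidises aliphatic aldoximes, had 27.7, 68.3 and 41.8 CPM in the 3 wild-type cold libraries. MAM1, which adds acetyl-CoA in the first elongation cycles, had 49.8, 120 and 66.6 CPM. MYB28 had 41.9, 44.3 and 43.2 CPM there, against 0.132, 0.0899 and 0.0834 CPM (1 count in each library) in wild-type darkness. All 3 genes were thus far higher in every cold library than in any dark library, but the experiments differ in age, temperature, light and normalisation, and no test was made between them. Of the 36 genes of the pathway that could be tested in the heat shock experiment, 6 had no count in any photomorphogenesis library, which is 16.7%. The corresponding share was 0.137% of the 17531 genes with at least 257 counts in the heat shock libraries, the sum for the weakest of those 36.

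**Figure D1:**
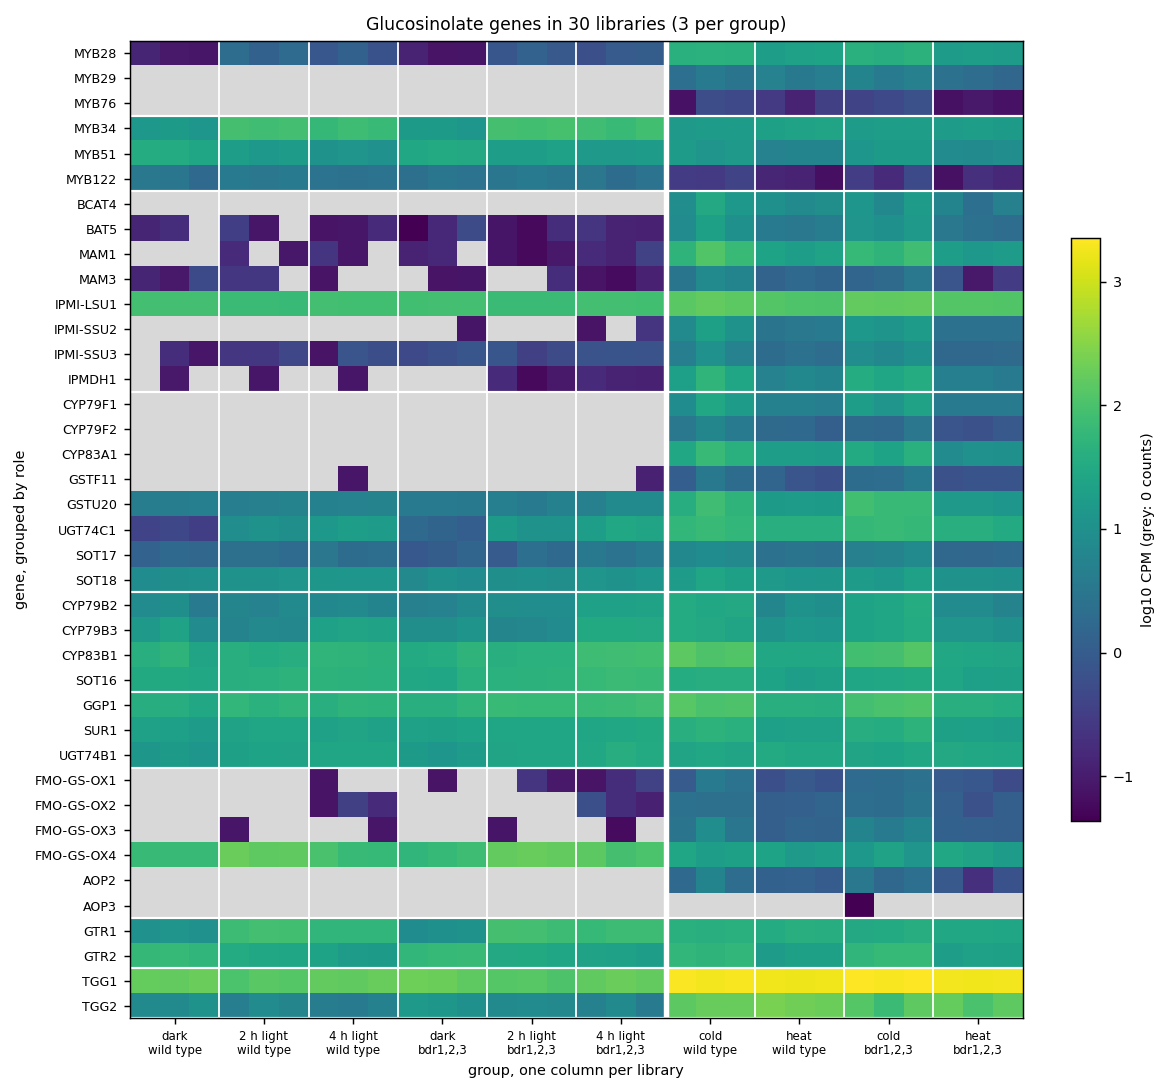
Levels of the 39 genes in each of the 30 libraries as log10 CPM, in order of role (white lines separate regulators, chain elongation, core, side-chain, transport and myrosinase genes), with grey cells for 0 counts. The photomorphogenesis libraries on the left hold grey or dark cells for most aliphatic genes, 8 of which had 0 counts in all 18 of them, while the heat shock libraries on the right do not.

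Not every step of the aliphatic branch was silent in the dark. IPMI-LSU1, the large subunit of the isopropylmalate isomerase shared with leucine synthesis, had 88.9, 88.6 and 87.6 CPM in wild-type dark libraries. SOT18 and GSTU20, a desulfoglucosinolate sulfotransferase and a glutathione transferase, had 9.44 ± 0.89 and 4.41 ± 0.232 CPM. FMO-GS-OX4, a flavin monooxygenase that oxidises the side-chain sulfur, had 68.1 ± 1.79 CPM in the dark, where its relatives FMO-GS-OX1, FMO-GS-OX2 and FMO-GS-OX3 had 0 counts in every wild-type library. Divided by exon length, the order of levels in wild-type darkness was led by TGG1 at 92.1 ± 5.04 CPM per kb, then IPMI-LSU1 at 43 ± 0.321, FMO-GS-OX4 at 30.7 ± 0.805 and the glutathione-conjugate peptidase GGP1 at 28.2 ± 4. The last 2 lay within their spread of each other. In wild-type cold libraries TGG1 stood at 1045 ± 85.4 CPM per kb, above GGP1 at 93.9 ± 15.5 and TGG2 at 86.4 ± 9.94, which lay within their spread of each other.

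White light raised some genes of the pathway and lowered others in wild type. Of the 21 genes tested, 9 were higher after 2 h and 5 lower, where 33.9% and 32.9% of all 19521 genes tested rose and fell (edgeR quasi-likelihood test, Benjamini-Hochberg adjusted over all genes tested, called at 0.05). After 4 h, 10 were higher and 3 lower, against 35.2% and 34.9% of all genes. The median log2 fold change of the 21 was 0.39 at 2 h and 0.37 at 4 h, and that of all genes was 0.01 and 0.00. The numbers that rose were thus near the background share or somewhat above it. In the mutant, 10 were higher and 5 lower after 2 h, with 33.9% and 33.8% of all genes, and 15 were higher and 3 lower after 4 h, with 35.9% and 34.1% of all genes.

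Among the regulators, light acted in opposite directions on the indole activators. MYB34 (AT5G60890) stood at 14.2, 15.9 and 13.0 CPM in wild-type darkness, at 91.0, 80.1 and 88.6 after 2 h and at 61.0, 76.0 and 66.3 after 4 h. The dark libraries did not overlap with either light group, and the log2 fold change was 2.59 ± 0.11 (SE) at 2 h and 2.24 ± 0.11 at 4 h (edgeR adjusted p = 1.43e-16 and 2.6e-15). MYB51 (AT1G18570) went the other way, from 35.4, 35.2 and 26.2 CPM in darkness to 18.0, 14.1 and 17.2 after 2 h and 11.2, 12.6 and 10.5 after 4 h. Its log2 fold change was -0.97 ± 0.12 and -1.49 ± 0.12, again without overlap (edgeR adjusted p = 8.26e-08 and 7.51e-11). In the mutant MYB34 had 16.1, 16.3 and 13.1 CPM in darkness, 91.0, 85.4 and 94.1 after 2 h and 79.9, 68.7 and 83.1 after 4 h. MYB51 had 28.2, 33.0 and 30.0 CPM in mutant darkness, 18.6, 18.1 and 21.3 after 2 h and 14.7, 14.7 and 16.8 after 4 h. Both genes thus moved in the mutant in the same direction as in wild type, and both passed there at both times. MYB122 had 3.29, 3.06 and 1.75 CPM in darkness, 3.97, 3.25 and 3.97 after 2 h and 2.66, 2.65 and 2.70 after 4 h, and passed the test at neither time (edgeR adjusted p = 0.0567 and 0.967). The aliphatic activator MYB28 (AT5G61420) rose from 3 counts over the 3 wild-type dark libraries to 63 over those of 2 h of light, at 2.15, 1.25 and 1.90 CPM, and to 34 at 4 h, at 0.836, 1.28 and 0.675 CPM. The ratio of summed counts was 18.1 at 2 h (95% exact counting interval 5.9 to 89.9) and 9.47 at 4 h (2.98 to 48.2), and edgeR called both (adjusted p = 2.01e-07 and 3.12e-05). In the mutant MYB28 had 0.131, 0.0763 and 0.0791 CPM in darkness, 0.807, 1.31 and 0.907 at 2 h and 0.627, 0.968 and 1.06 at 4 h. Even so, MYB28 in light stayed well under its level in cold-grown seedlings given above.

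UGT74C1 (AT2G31790), which glucosylates aliphatic thiohydroximates, rose more than any other core gene. It had 0.395, 0.449 and 0.334 CPM in wild-type darkness, 8.77, 11.1 and 9.66 after 2 h and 14.4, 18.1 and 17.2 after 4 h. The groups did not overlap and the log2 fold change was 4.62 ± 0.29 and 5.37 ± 0.27 (edgeR adjusted p = 6.66e-13 and 8.55e-15). As the dark libraries held 12 counts in all, the ratio of summed counts had a 95% counting interval of 14.2 to 49.1 at 2 h and of 24 to 82.2 at 4 h. SOT18 rose at 4 h alone (log2 fold change 0.46 ± 0.12, edgeR adjusted p = 0.00187), while GSTU20 and SOT17 passed at neither time in wild type. IPMI-LSU1, the one chain elongation gene tested, had 72.1, 71.6 and 68.0 CPM at 2 h, lower than in darkness (-0.32 ± 0.05), and 85.8, 82.6 and 83.6 at 4 h, where it did not pass (-0.07 ± 0.05). UGT74C1 overlaps AT2G31800 on the opposite strand. Whether the counting used strand is not given in the sources used here, so its reads cannot be told apart from those of that partner.

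In the indole branch, CYP79B3, which converts tryptophan to its aldoxime, fell and then recovered. Its wild-type libraries had 14.8, 22.3 and 8.09 CPM in darkness, 5.62, 7.16 and 6.73 after 2 h and 21.4, 24.1 and 22.7 after 4 h. The change from dark to 2 h was -1.20 ± 0.27 and that from 2 to 4 h 1.80 ± 0.26 on the log2 scale (edgeR adjusted p = 0.00127 and 5.1e-05). Its rise from dark to 4 h, 0.60 ± 0.24 with overlapping libraries, did not pass without wild-type dark replicate 1 or 3, or any one of the 3 libraries of 4 h. CYP79B2, which carries out the same reaction, had 8.03, 9.53 and 3.59 CPM in darkness and 6.92, 7.77 and 5.82 after 4 h, with no call at either time. Wild-type dark replicate 3 was the lowest of its group for CYP79B2, CYP79B3 and CYP83B1. SOT16, the indole desulfoglucosinolate sulfotransferase, rose from 31.3, 31.5 and 28.9 CPM to 40.0, 42.8 and 48.3 after 2 h and 48.2, 46.9 and 44.4 after 4 h, by 0.52 ± 0.13 and 0.61 ± 0.12 on the log2 scale, and CYP83B1 passed at neither time.

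The 3 enzymes shared by both branches all rose at both times. GGP1 rose by 0.60 ± 0.12 at 2 h and 0.44 ± 0.12 at 4 h on the log2 scale, and UGT74B1, the main thiohydroximate glucosyltransferase, by 0.65 ± 0.11 and 0.87 ± 0.11, from 13.8, 16.0 and 13.3 CPM in darkness to 21.2, 23.9 and 22.6 and then 26.1, 27.1 and 25.6. SUR1, the carbon-sulfur lyase, rose by 0.39 ± 0.10 at 2 h. Its smaller rise at 4 h (0.23 ± 0.10) was lost with DESeq2 and without any 1 of 9 libraries. FMO-GS-OX4 rose for a short time, from 69.4, 68.9 and 66.1 CPM to 189, 151 and 160 after 2 h, and stood at 101, 67.9 and 61.8 after 4 h. Its log2 fold change was 1.29 ± 0.20 at 2 h (edgeR adjusted p = 5.61e-05) and 0.18 ± 0.20 at 4 h, where it did not pass.

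The plasma membrane importers GTR1 and GTR2, which load glucosinolates into the phloem, moved in opposite directions. GTR1 (AT3G47960) rose from 10.4, 12.6 and 10.5 CPM to 72.6, 88.6 and 84.9 after 2 h and 54.5, 54.5 and 55.1 after 4 h. GTR2 (AT5G62680) fell from 59.8, 62.1 and 55.2 CPM to 35.2, 29.5 and 26.8 and then 23.8, 17.7 and 16.2. Neither gene's dark libraries overlapped with its light libraries, and the log2 fold changes at 2 h were 2.87 ± 0.11 and -0.95 ± 0.11 (edgeR adjusted p = 5.27e-17 and 1.01e-07). GTR2 therefore led GTR1 in darkness and GTR1 led GTR2 in light, with CPM values that compare genes of nearly equal exon length (2247 and 2382 bases). Both overlap a gene on the opposite strand (AT3G47950 and AT5G62670). The myrosinase TGG1 fell from 174, 165 and 184 CPM to 103, 141 and 126 after 2 h (-0.50 ± 0.12, edgeR adjusted p = 0.00106) and stood at 167, 160 and 183 after 4 h. TGG2 had 7.50, 8.00 and 11.2 CPM in darkness and 4.33, 4.01 and 5.23 after 4 h, a log2 fold change of -0.99 ± 0.26 (edgeR adjusted p = 0.00212). The summed level of 5 guard and myrosin cell markers also moved, from 30.0 to 39.2 CPM in dark libraries to 17.1 to 20.2 after 2 h and 17.1 to 18.1 after 4 h. These markers did not all move together. At each time 2 of the 4 tested were lower and 2 did not pass, where 32.9% and 34.9% of all genes were lower. Their log2 fold changes ran from -1.31 to 0.09 at 2 h and from -1.44 to 0.31 at 4 h. The part of these markers in the myrosinase changes was not tested. TGG1 and TGG2 are close copies, so reads may be split between them.

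**Figure D2:**
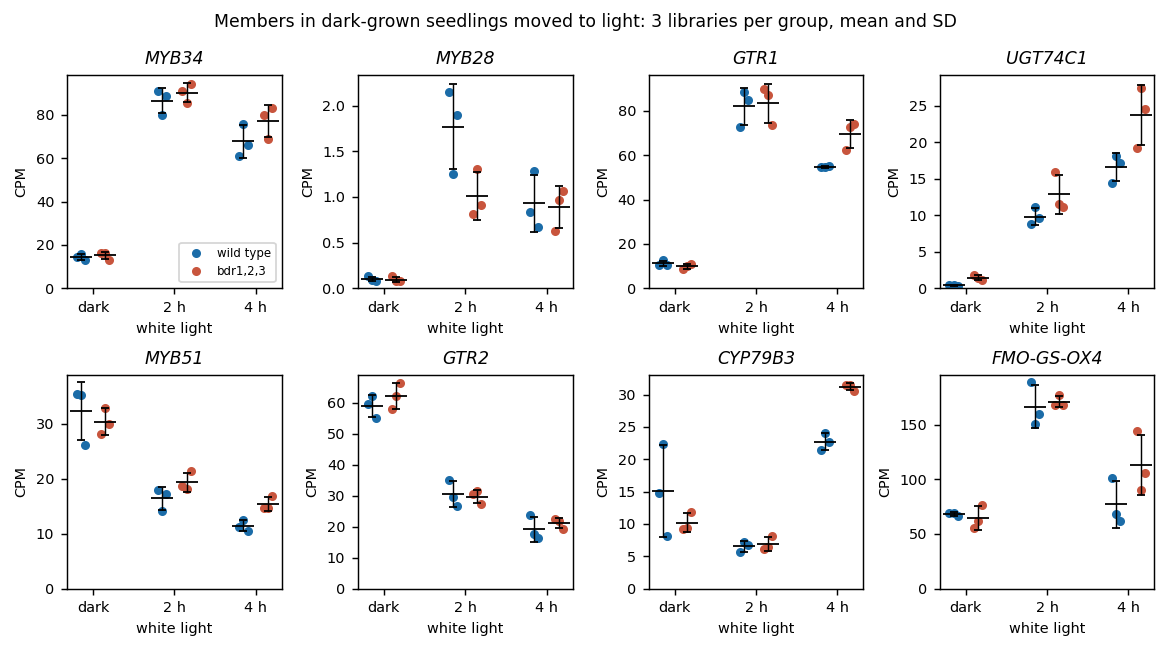
CPM of 8 genes in each photomorphogenesis library (points, blue for wild type and red for bdr1,2,3, 3 per group) with mean and SD (black), in darkness and after 2 and 4 h of white light. MYB34, MYB28, GTR1 and UGT74C1 are higher in light, MYB51 and GTR2 are lower, CYP79B3 dips at 2 h and FMO-GS-OX4 peaks there.

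Between 2 and 4 h of light in wild type, 4 of the 21 genes rose further and 6 fell, against 23.4% and 22.6% of all genes. CYP79B3, UGT74C1 (0.75 ± 0.15), TGG1 (0.46 ± 0.12) and IPMI-LSU1 (0.25 ± 0.05) were higher at 4 h. FMO-GS-OX4 (-1.11 ± 0.19), MYB28 (-0.92 ± 0.33), GTR2 (-0.66 ± 0.12), GTR1 (-0.58 ± 0.09), MYB51 (-0.52 ± 0.13) and MYB34 (-0.35 ± 0.09) were lower. The early inductions of MYB34, MYB28, GTR1 and FMO-GS-OX4 were thus already past their level at 2 h, while UGT74C1 was still rising. MYB28's decline was not called by DESeq2 or without any one of 4 libraries.

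The 3 shared enzymes and some genes of the indole branch were higher in bdr1,2,3 after 4 h of light, as were UGT74C1 and GTR1. At that time 9 of the 21 genes were higher in bdr1,2,3 than in wild type and none lower, where 7.86% and 8.67% of all genes were. In darkness 2 were higher and none lower, where 8.04% and 11.3% of all genes were. At 2 h of light none passed in either direction, where 8.67% and 10.6% of all genes did, although 3 had an unadjusted edgeR p under 0.05 and DESeq2 called 1, GGP1. The median log2 difference of the 21 between genotypes was 0.04 in darkness, 0.06 at 2 h and 0.36 at 4 h. Markers of other tissues were read in the same 4 h libraries. The 3 root-hair markers summed to 0.302 to 2.59 CPM in the mutant and to at most 0.532 in wild type, the 6 seed storage markers to 1.57 to 23 against 0.341 to 9.78, the 5 guard and myrosin cell markers to 14.3 to 18.3 against 17.1 to 18.1, and the 3 green-tissue markers to 5942 to 6962 against 7328 to 7627. Of these sums, that of the green-tissue markers did not overlap between genotypes. Their part in the difference was not tested.

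CYP79B2 differed most at 4 h. It had 6.92, 7.77 and 5.82 CPM in wild type and 21.2, 21.6 and 22.2 in the mutant, while at 2 h it had 6.12, 5.33 and 7.68 against 9.36, 8.98 and 8.79. The groups did not overlap at 4 h and the log2 difference was 1.66 ± 0.23 (edgeR adjusted p = 6.25e-05). In the mutant the gene rose from 4.89, 5.42 and 7.75 CPM in darkness, by 1.87 ± 0.23 on the log2 scale, where the wild-type change of -0.02 ± 0.26 did not pass. The difference between the 2 light responses was itself called, at 1.89 ± 0.34 (edgeR adjusted p = 0.00765), and was 1.56 to 2.24 when any one library was left out. It was the sole member of the list called in the interaction at 4 h, where 2.07% of all genes were called. However, 10 of the 21 had an unadjusted edgeR p under 0.05 there, a share that was not counted over all genes. The median interaction at 4 h was 0.24 for the 21 and 0.02 for all genes. None was called at 2 h (1.84% of all genes), where 1 had an unadjusted p under 0.05. Without wild-type dark replicate 3, the library low in the indole core, 4 of the 21 were called at 4 h and 2 at 2 h, and without mutant dark replicate 3 it was 3 at 4 h. Without mutant 4 h replicate 1 it was 2 at 4 h.

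The neighbouring steps followed with smaller differences at 4 h. CYP83B1, the indole aldoxime oxidase, had 53.6, 50.9 and 46.3 CPM in wild type and 76.4, 81.0 and 84.6 in the mutant (0.68 ± 0.20). SOT16 had 48.2, 46.9 and 44.4 against 61.9, 70.8 and 66.8 CPM (0.52 ± 0.12), and GGP1 40.9, 49.8 and 47.6 against 67.8, 72.2 and 79.0 CPM (0.66 ± 0.11). In each case every mutant library lay above every wild-type one, although how many of all genes separate in this way was not counted. CYP79B3 also did not overlap, with 21.4, 24.1 and 22.7 CPM against 31.5, 31.5 and 30.6, but its difference of 0.46 ± 0.22 did not pass (edgeR adjusted p = 0.185). The call of CYP83B1 (adjusted p = 0.0324) was lost when any one of the 6 libraries of 4 h was left out. SUR1 (0.37 ± 0.09), UGT74B1 (0.33 ± 0.10), GTR1 (0.35 ± 0.09), MYB51 (0.42 ± 0.13) and UGT74C1 (0.52 ± 0.14) were the other 5 genes higher in the mutant. The calls of MYB51, UGT74C1 and UGT74B1 were lost without any one of 3, 2 and 2 libraries, and that of GTR1 without mutant 4 h replicate 3. MYB34 had 61.0, 76.0 and 66.3 CPM in wild type and 79.9, 68.7 and 83.1 in the mutant at 4 h, overlapped and did not pass. MYB28 and MYB122 did not pass at any time. Libraries with the same replicate number deviated together at 4 h. A fit of those 6 libraries with the number as a block called 11 of the 21, all higher in the mutant. The added genes were CYP79B3 and FMO-GS-OX4. That fit also called more of all genes, 2649 higher and 2824 lower of 18638 tested. The fit of all 18 libraries called 1535 higher and 1692 lower of 19521. The added calls therefore cannot be read as particular to the pathway.

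UGT74C1 already differed in darkness, where the wild-type libraries had 0.395, 0.449 and 0.334 CPM and the mutant ones 1.79, 1.45 and 1.11. These are 12 and 74 counts, a ratio of 3.89 with a 95% counting interval of 2.1 to 7.87, and edgeR called the difference (log2 1.92 ± 0.39, adjusted p = 0.00106). The rise of UGT74C1 with light was smaller in the mutant than in wild type, by -1.53 ± 0.43 at 2 h and -1.39 ± 0.43 at 4 h, but neither passed (edgeR adjusted p = 0.0714 and 0.101). GGP1 was the other gene higher in mutant darkness (0.36 ± 0.12, adjusted p = 0.044), and that call was lost when any one of 9 libraries was left out. Mutant dark replicate 3, which held the most root-hair and seed storage marker counts, was the highest of its group for CYP79B2, CYP79B3, CYP83B1, SOT16 and GGP1, and the lowest for UGT74C1.

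**Figure D3:**
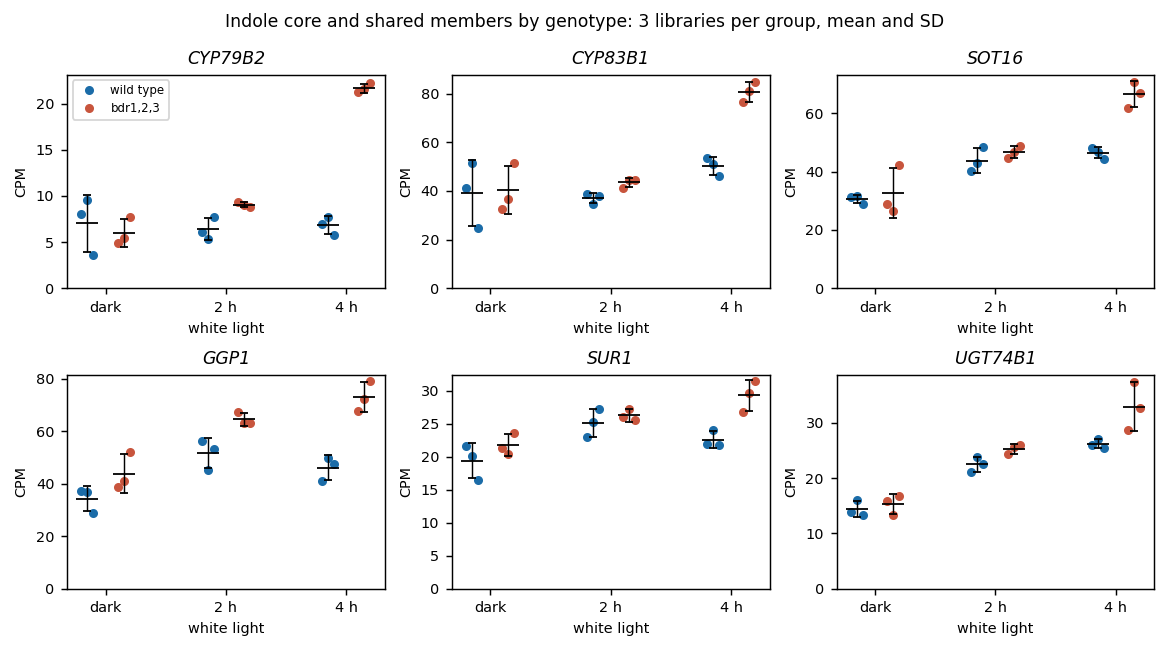
CPM of CYP79B2, CYP83B1, SOT16, GGP1, SUR1 and UGT74B1 in each photomorphogenesis library (points, blue for wild type and red for bdr1,2,3) with mean and SD (black). After 4 h of light every mutant library lies above every wild-type library for all 6 genes, most widely for CYP79B2 (6.83 against 21.7 CPM on average). How many of all genes separate in this way was not counted.

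Moving cold-grown seedlings to 27 °C lowered nearly the whole pathway. In wild type 28 of the 36 genes tested fell and 2 rose, where 28.5% and 29.3% of all 19473 genes tested did, and the median log2 fold change was -1.29 for the pathway and 0.00 for all genes. In bdr1,2,3, 32 fell and none rose, where 31.2% and 29.4% of all genes did, and the median was -1.48. The share that fell was thus well above the background in both genotypes. When any one library was left out, 28 to 31 genes were called in wild type and 30 to 33 in the mutant. MYB76, MYB122 and AOP3 had at most 51 counts over the 12 libraries and were not tested.

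The regulators did not all move with the enzymes. MYB28 fell in wild type from 41.9, 44.3 and 43.2 CPM to 17.9, 21.8 and 23.2 (-1.04 ± 0.10, edgeR adjusted p = 9.27e-08), and MYB51 from 17.3, 12.3 and 15.5 to 5.26, 5.77 and 5.85 (-1.44 ± 0.14, adjusted p = 1.37e-07). MYB34 rose from 14.8, 17.6 and 16.5 to 20.7, 22.6 and 24.2 CPM (0.47 ± 0.10, edgeR adjusted p = 0.000504), without overlap. MYB29 had 2.30, 3.63 and 2.87 CPM before the shift and 5.33, 3.56 and 4.49 after it, a rise of 0.64 ± 0.23 with overlapping libraries (edgeR adjusted p = 0.0221) that was lost without wild-type cold replicate 1 or 3 or heat replicate 1. MYB76 had 0.0743, 0.559 and 0.469 CPM before the shift and 0.277, 0.13 and 0.34 after it. MYB122 lay near the floor too, with 0.297, 0.279 and 0.411 CPM before the shift and 0.138, 0.13 and 0.0681 after it, and at most 2 counts in a heated library of either genotype. In wild type MYB28 and MYB51 thus fell with the pathway while MYB34 rose. In bdr1,2,3 none of the regulators tested rose, and MYB34 had 10.6 ± 0.484 CPM per kb in the cold and 9.85 ± 0.745 in the heat.

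All 8 chain elongation genes had lower means in heat, and 7 of them passed in wild type. IPMDH1 (AT5G14200), the isopropylmalate dehydrogenase of the cycle, fell the most, from 20.1, 52.4 and 26.1 CPM to 5.40, 7.00 and 5.79 (-2.38 ± 0.34, edgeR adjusted p = 0.000214). IPMI-SSU2, an isomerase small subunit, fell from 7.36, 20.7 and 11.2 to 3.32 ± 0.487 CPM on average (-1.90 ± 0.32). MAM1 fell by 1.83, MAM3 by 1.76, BAT5, the plastid bile acid transporter-like carrier of keto acids, by 1.69 and IPMI-SSU3 by 1.51 on the log2 scale. IPMI-LSU1 fell by only 0.39 on that scale, from 140, 167 and 148 CPM to 124, 113 and 110. BCAT4 had 8.84, 30.2 and 14.1 CPM before the shift and 10.2, 7.51 and 9.32 after it and did not pass (-0.89 ± 0.48, edgeR adjusted p = 0.144), although it did without wild-type cold replicate 1. In the mutant BCAT4 passed at -1.48 ± 0.53, a call lost without any one of 8 libraries.

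In the core of the aliphatic branch all 8 genes fell. CYP79F1, which acts on elongated methionines of all lengths, fell the most, from 8.55, 29.6 and 17.0 CPM to 5.05, 5.05 and 4.49 (-1.85 ± 0.41, edgeR adjusted p = 0.00365). GSTU20 fell by 1.75, SOT17 by 1.53, CYP79F2 by 1.42, CYP83A1 by 1.31, GSTF11 by 1.08, SOT18 by 0.61 and UGT74C1 by 0.54 on the log2 scale. GSTF11, whose cold and heat libraries overlapped, was not called without wild-type cold replicate 2 or 3 or heat replicate 2 or 3. UGT74C1 and SOT18 thus had the smallest falls of the 8.

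The indole and shared cores fell as well. CYP83B1 fell the most, from 147, 107 and 119 CPM to 28.4, 28.0 and 28.4 (-2.14 ± 0.14, edgeR adjusted p = 8.26e-09), and CYP79B2 fell from 34.0, 28.8 and 30.4 to 6.23, 11.2 and 9.73 (-1.78 ± 0.21). Cold and heated libraries were far apart in both. CYP79B3 fell by 1.19 and SOT16 by 0.82 on the log2 scale. GGP1 fell from 135, 97.8 and 110 CPM to 39.4, 40.8 and 37.2 (-1.55 ± 0.11), and SUR1 by 1.05 on the log2 scale. UGT74B1 had 24.3, 29.5 and 24.9 CPM before the shift and 32.7, 28.2 and 28.1 after it and did not pass (0.19 ± 0.10, edgeR adjusted p = 0.105). UGT74B1 thus did not follow SUR1 and GGP1, the other shared enzymes.

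Among side-chain genes, FMO-GS-OX3 fell by 1.72, FMO-GS-OX1 by 1.66, AOP2 by 1.26 and FMO-GS-OX2 by 0.90 on the log2 scale in wild type. FMO-GS-OX3 had 2.82, 8.94 and 3.11 CPM before the shift and 1.18, 1.49 and 1.36 after it. FMO-GS-OX4, the one side-chain gene that was abundant in dark-grown seedlings, had 25.8, 18.2 and 20.7 CPM before the shift and 23.7, 14.8 and 18.8 after it and did not pass. AOP2, which is annotated as a transcribed pseudogene in this accession, was not called without wild-type cold replicate 2 or heat replicate 3. GTR2 fell from 58.1, 51.0 and 58.1 CPM to 16.5, 21.0 and 21.0 (-1.52 ± 0.10, edgeR adjusted p = 1.51e-09), and GTR1 had 42.7, 40.4 and 43.2 before the shift and 34.7, 38.4 and 37.9 after it, just short of the threshold (-0.19 ± 0.08, adjusted p = 0.0558). GTR2 thus fell in heat as it did in light. TGG1 had 2134, 1811 and 1993 CPM before the shift and 1749, 1714 and 1798 after it (-0.17 ± 0.08, adjusted p = 0.0631), and TGG2 147, 180 and 183 against 258, 212 and 195 (0.38 ± 0.29). Neither myrosinase passed in wild type, and in the mutant TGG1 did (-0.24 ± 0.08), except without mutant cold replicate 1 or heat replicate 2. Of the 17 genes with an AC element upstream, 15 fell in heated wild type, as did 13 of the 19 tested without one and 28.5% of all genes tested. These sets also differ in role, as no indole regulator, transporter or myrosinase has an element. A link between element and fall was not tested.

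**Figure D4:**
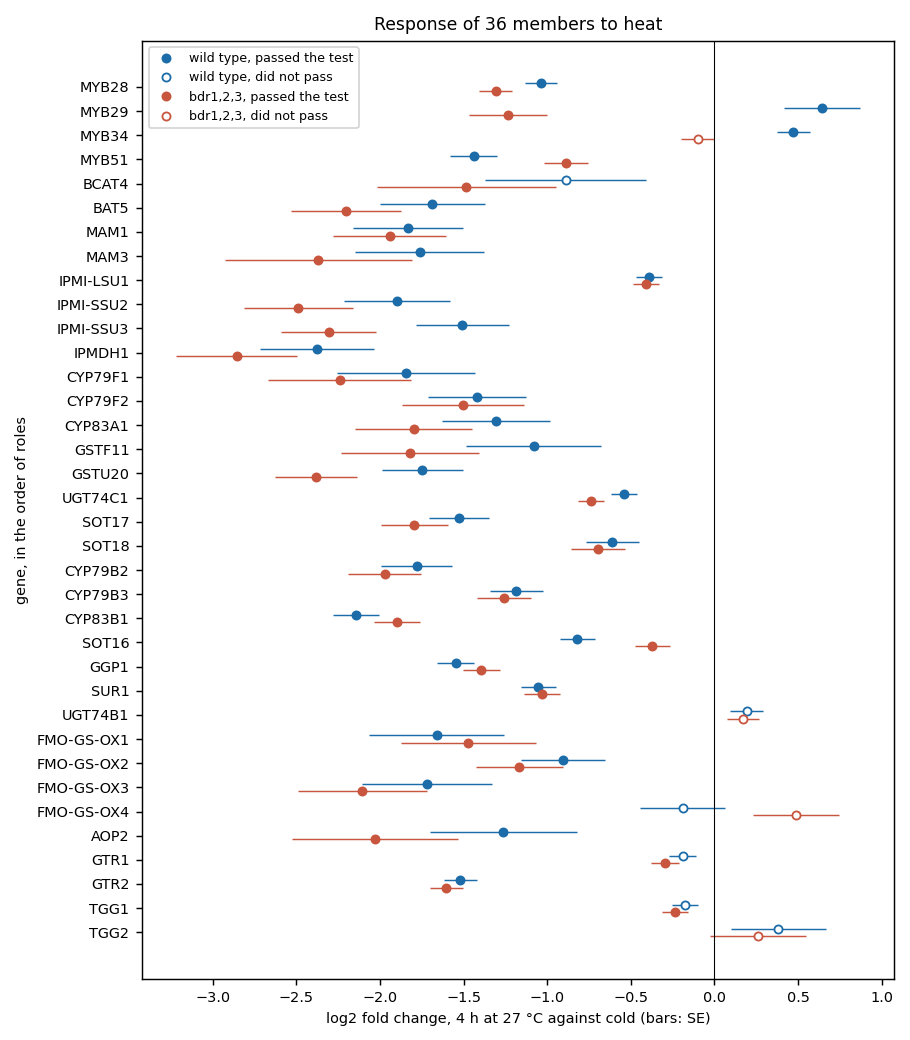
Log2 fold change of 36 genes after 4 h at 27 °C against the cold (horizontal axis, bars are SE) in wild type (blue) and bdr1,2,3 (red), in order of role, with filled points for genes that passed the test. Of the wild-type points 28 lie to the left of 0 and passed, and MYB29 and MYB34 are the 2 that rose.

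The wild-type cold libraries differed among themselves in the aliphatic branch. Replicate 2, the shallowest library, was the highest of the 3 for 21 of the 23 aliphatic genes tested, at a median of 1.97 times the mean of the other 2 replicates, with a range from 0.781 to 3.01. For the 6 indole genes it was the highest for 2, and for TGG1, TGG2, GTR1 and GTR2 for none. How many of all genes were highest in that library was not counted. The ratio of the highest to the lowest library had a median of 2.42 over the aliphatic genes in wild-type cold, 1.29 in wild-type heat, 1.48 in mutant cold and 1.2 in mutant heat. The aliphatic genes thus went up and down together between plates kept in the cold, and with them the size of the fall in heat. Without that library CYP79F1 and IPMDH1 still fell, and over all libraries left out in turn their log2 fold changes ran from -2.21 to -1.42 and from -2.64 to -1.94.

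**Figure D5:**
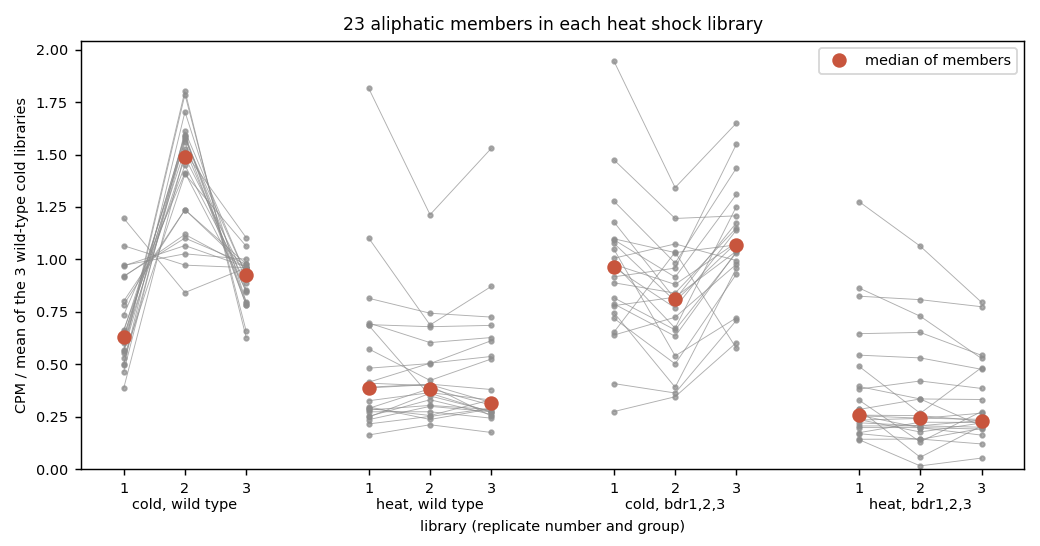
CPM of 23 aliphatic genes in each of the 12 heat shock libraries, divided by the gene's mean over the 3 wild-type cold libraries (grey points, lines join the same gene across libraries of a group), with the median over genes in red. Wild-type cold replicate 2 lies highest for 21 of the 23 genes, and the heated libraries of both genotypes lie mostly below 1. How many of all genes were highest in that replicate was not counted.

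The genotypes differed in few genes of the pathway in the heat shock experiment. In the cold 1 of the 36 was higher in bdr1,2,3 and 4 were lower, where 4.57% and 6.36% of all genes were. At 27 °C again 1 was higher and 4 lower, where 8.53% and 10.9% of all genes were. These shares are near the background. The count in the cold turned on single libraries. It was 0 without wild-type cold replicate 3 or mutant cold replicate 1, 1 without mutant cold replicate 2, 3 without wild-type cold replicate 1 and 8 without wild-type cold replicate 2. In the heat it was 2 without mutant heat replicate 3 and 8 without mutant cold replicate 3.

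MYB29 (AT5G07690) reversed its genotype difference with temperature. In the cold it had 2.30, 3.63 and 2.87 CPM in wild type and 5.71, 3.94 and 4.84 in the mutant (0.79 ± 0.22, edgeR adjusted p = 0.029). At 27 °C it had 5.33, 3.56 and 4.49 CPM in wild type and 2.54, 2.14 and 1.55 in the mutant (-1.09 ± 0.24, edgeR adjusted p = 0.0031). Neither pair of groups overlapped, and the difference between the heat responses was -1.88 ± 0.32 (edgeR adjusted p = 0.0102). It was the sole gene of the pathway called in that interaction, where 1.02% of all genes were called, and the call was lost without wild-type cold replicate 3. These values rest on 21 to 129 counts in a library. The cold difference of MYB29 was lost without wild-type cold replicate 1 or 3 or mutant cold replicate 1 or 3, whereas the difference at 27 °C was called whichever library was left out. MYB34 had 20.7, 22.6 and 24.2 CPM in heated wild type and 17.8, 18.6 and 16.1 in the heated mutant (-0.36 ± 0.10, edgeR adjusted p = 0.0119), and MYB51 5.26, 5.77 and 5.85 against 8.04, 7.55 and 8.80 (0.53 ± 0.15, adjusted p = 0.0161). The first call was lost without heat replicate 3 of either genotype and the second without mutant heat replicate 3. MYB51 was therefore the one gene higher in the heated mutant. MYB28 had 17.9, 21.8 and 23.2 CPM in heated wild type and 16.5, 18.2 and 16.6 in the heated mutant, which just missed the threshold (-0.30 ± 0.10, adjusted p = 0.0505).

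MAM3 and GTR1 were lower in the mutant at both temperatures. MAM3 (AT5G23020), which makes long-chain aliphatic precursors, had 5.46 ± 2.41 CPM in wild-type cold and 2.23 ± 0.944 in mutant cold, with overlapping libraries (-1.27 ± 0.36, edgeR adjusted p = 0.0357), and 1.38, 1.81 and 1.43 against 0.776, 0.0932 and 0.296 in the heat (-1.88 ± 0.59, adjusted p = 0.0375). The heated mutant libraries held 11, 1 and 4 counts of MAM3, and its calls were lost without any one of 5 libraries in the cold and of 6 in the heat. MAM1, its neighbour 11144 bases upstream on the same strand, overlapped between genotypes in the cold and passed at neither temperature. GTR1 had 42.7, 40.4 and 43.2 CPM in wild-type cold and 31.0, 33.0 and 38.1 in mutant cold (-0.32 ± 0.08), and 34.7, 38.4 and 37.9 against 27.6, 28.6 and 26.8 in the heat (-0.42 ± 0.08, adjusted p = 0.0016). In 4 h of light the same gene had been higher in the mutant. SOT16 was lower in mutant cold (37.2 ± 0.483 against 28.5 ± 2.85 CPM, -0.39 ± 0.10), as was CYP79F2. The cold calls of SOT16, GTR1 and CYP79F2 were lost without any one of 3, 4 and 4 libraries, whereas that of GTR1 at 27 °C was kept.

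CYP79F2 lies in a tandem pair, and its difference was not shared by its partner. CYP79F2 (AT1G16400, chr1:5605044-5607498) had 3.35, 6.43 and 3.87 CPM in wild-type cold and 1.86, 1.66 and 3.23 in mutant cold (-0.96 ± 0.28, edgeR adjusted p = 0.0327), while CYP79F1 (AT1G16410, chr1:5608682-5612064), which lies 1183 bases downstream, had 8.55, 29.6 and 17.0 against 18.0, 12.4 and 23.0 (0.03 ± 0.36). Their difference from each other was not tested, and reads may be split between these close copies. CYP79F2 is 1 of 5 protein-coding genes of the list with a protein-coding neighbour upstream on the same strand within 600 bases, at 273 bases from AT1G16390. The others are IPMI-SSU2 at 150 bases, GSTF11 at 229, SOT17 at 256 and CYP83A1 at 537, and these 4 passed in no comparison between genotypes in which they were tested. In the heated mutant the fitted difference of all 5 was negative, from -1.04 ± 0.39 for CYP79F2 to -0.36 ± 0.39 for IPMI-SSU2, as was the median of the 36 genes tested (-0.33). None of the 5 passed there, where 10.9% of all genes were called lower. Unadjusted edgeR p-values were 0.0135 for SOT17, 0.015 for CYP79F2 and 0.0328 for CYP83A1. Heated mutant and wild-type libraries did not overlap for any of the 5 but GSTF11, and how many of all genes lacked overlap was not counted. Over the list 28 of the 39 genes have their nearest upstream neighbour on the same strand. Neither this share nor that of such neighbours within 600 bases was counted over all genes. The genes that differed at 4 h of light are not among the 5. Of the 5, however, SOT17 alone held enough counts to be tested under light, so the other 4 could not have been called there. Where the genes that differed have a same-strand neighbour, it lies from 671 bases (CYP83B1) to 6994 bases (GTR1) away, with 785 for UGT74C1 and 3436 for CYP79B2. Besides UGT74C1, GTR1 and GTR2, the genes BCAT4, IPMDH1 and GSTF11 overlap a gene on the opposite strand and SOT18 overlaps AT1G74088 on its own strand.

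Genes that feed or modify the pathway were read in the same fits, where 35.2% of all genes rose and 34.9% fell after 4 h of light in wild type, and 29.3% rose and 28.5% fell in heat. Of 7 indole-modifying genes, 3 rose and 2 fell in wild type after 4 h of light, led by the hydroxylases CYP81F4 (4.79 ± 1.57 to 181 ± 17.6 CPM, log2 5.20 ± 0.14) and CYP81F1 (2.67 ± 0.33). In heat 3 of the 7 fell, led by the methyltransferase IGMT2 (-3.38 ± 0.60) and CYP81F2 (-3.14 ± 0.33). IGMT2 is a close copy of IGMT1, and its heated wild-type libraries held 0, 5 and 3 counts. CYP81F2, CYP81F4, IGMT2 and IGMT5 each passed as higher in the mutant in darkness and at both light times, where 8.04%, 8.67% and 7.86% of all genes did. The largest difference at 4 h was that of IGMT2, with 0.38, 0.171 and 0.169 CPM in wild type and 2.90, 3.02 and 3.78 in the mutant (3.66 ± 0.37). CYP81F4 was higher in the mutant at 4 h of light (0.44 ± 0.10) and lower in mutant seedlings of the heat shock experiment, both before (-0.90 ± 0.13) and after (-1.21 ± 0.13) the shift. Of 7 sulfate activation genes, 5 rose after 4 h of light in wild type, led by the APS reductases APR2 (2.84 ± 0.23) and APR3 (2.12 ± 0.29), and 6 fell in heat, led by APK2 (-1.73 ± 0.15) and APR3 (-1.64 ± 0.15). Sulfate activation genes, like GTR1, differed by genotype in opposite directions in the experiments: 4 of 7 were higher in the mutant at 4 h of light, with APR3 at 16.7 ± 1.93 against 36.7 ± 2.98 CPM, and 4 of 7 lower in the cold, where 6.36% of all genes were, with APR3 at 191 ± 29.6 against 72.8 ± 4.31. SDI1 and SDI2, sulfur deficiency genes known to repress glucosinolate synthesis, were among the 8 other regulators and were lower in the mutant in the cold (-1.58 ± 0.27 and -1.02 ± 0.14). Of those 8, 2 rose and 3 fell after 4 h of light and 4 fell in heat. Of 8 tryptophan synthesis genes, 7 rose after 4 h of light, led by TSA1 (0.91 ± 0.12) and PAI1 (0.90 ± 0.25), and 4 fell in heat, led by ASB1 (-1.39 ± 0.13) and TSB1 (-0.78 ± 0.09). Of 13 breakdown genes, 4 were tested under light, where PYK10 (1.52 ± 0.09) and NSP1 (1.09 ± 0.08) rose and 2 fell at 4 h, and 12 were tested in heat, where 2 rose and 5 fell, led by NSP3 (-2.39 ± 0.33) and MBP2 (-2.19 ± 0.50).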

How the data were processed

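RNA-seq was done on 30 libraries of Arabidopsis seedlings (TruSeq Stranded mRNA, NextSeq500). The authors deposited whole-number counts per gene, and their processing notes name STAR 2.5.2b, SAMtools 1.3.1, featureCounts, R 3.3.2, DESeq2 1.14.1 and TAIR10. The strand setting of the counting is not given in the sources used here. The normalized tables they deposited were not used. Genes passing filterByExpr (19521 and 19473) were scaled by TMM and fitted in R 4.3.3 with edgeR 4.0.16 (robust quasi-likelihood, 1 coefficient per group, 1 fit per experiment), and p-values were Benjamini-Hochberg adjusted over all genes tested, with calls under 0.05. The script was tested on simulated data. Values are CPM from TMM-scaled library sizes.

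Alternatives were RLE and upper-quartile scaling, no filter, DESeq2 1.42.0, a replicate block, a minimum fold of 1.5, fits of only the groups compared and leaving out each library. Replicate pairs differed by more than sampling noise (chi-square per degree of freedom 2.02 to 15.4). Same-numbered libraries correlated above 0.1 in every pair only between genotypes at 4 h of light (r = 0.63, 0.41 and 0.19), where the block is reported.

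The genes, the lists and the tests were chosen with earlier results of these data known. Every gene of the list could be named. By rule, library values were printed for the 6 MYB genes, for the gene with the largest change in each role list under light and heat in wild type, and for genes with interactions or large genotype differences, although not for every group (some mutant groups, and genes at or near 0, are given as counts, ranges or means), and of the related lists the 2 called genes with the largest change. Values of some other genes were added after they were seen. Coordinates, neighbours and sequences are from RefSeq TAIR10.1. Counting intervals and floors cover counting error only.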

Additional observations from a re-analysis of the deposited data

Results flagged for a closer look

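In 2 genes the response to a treatment differed between genotypes by a test of the difference itself. CYP79B2 rose more in bdr1,2,3 than in wild type after 4 h of light, by 1.892 ± 0.345 (SE) on the log2 scale (edgeR adjusted p = 0.00765), and the mutant libraries were higher than the wild-type ones in 3 of 3 at that time. MYB29 responded to heat in opposite directions, with a difference of -1.88 ± 0.325 (edgeR adjusted p = 0.0102), and its call was lost without wild-type cold replicate 3.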

How the results depend on the processing

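No result changed direction while called. Requiring a 1.5-fold change left 8 genes called at 2 h of light and 7 at 4 h in wild type. It left 6 at 2 h in the mutant and 2 between 2 and 4 h in wild type. In the same order, 6184, 6877, 6112 and 1681 of all 19521 genes tested were called. Between genotypes it left 1 in darkness, 1 at 4 h, and 0 in the cold and at 27 °C. In the interactions at 4 h and in heat it left 0. For the other counts of this section the number of all genes called is not given here. Between genotypes at 2 h of light, RLE, upper-quartile and DESeq2 each called 1, and a fit of only those groups 4, against 0. Fits of only the groups compared gave 1 in darkness and 8 at 27 °C, against 2 and 5. The replicate block gave 1 in darkness and 2 in the heat interaction, where no filter also gave 2, against 1. The causes were not tested. Apart from genotype at 4 h of light, no comparison had every same-numbered pair correlated above 0.1. Between genotypes in darkness (r = 0.18, 0.03 and 0.28) and for heat in the mutant (0.09, 0.11 and 0.18), libraries still correlated best with their own number.

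When 1 library was left out, calls ran from 14 to 17, 11 to 14, 13 to 16 and 18 to 19 for light at 2 and 4 h in wild type and in the mutant, 9 to 12 between 2 and 4 h, 28 to 31 and 30 to 33 for heat in wild type and mutant, 1 to 3, 0 to 2, 6 to 10, 0 to 8 and 2 to 8 for genotype in darkness, 2 h, 4 h, cold and heat, and 0 to 2, 1 to 4 and 0 to 2 for the interactions at 2 h, 4 h and in heat. The 2 genes called by genotype in darkness became 1 without wild-type dark replicate 1, wild-type 4 h replicate 3, mutant dark replicate 2 or any mutant 2 h library. The 0 at 2 h became 2 without wild-type dark replicate 3 or mutant 4 h replicate 1, and 1 without any one of 4 others. The heat interaction gave 2 without wild-type cold replicate 2 or heat replicate 1.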
